A study of Mus musculus with 11 samples.

Results

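The genes described here are the replication-dependent histone cluster genes, taken as every gene whose symbol begins with Hist1h, Hist2h, Hist3h or Hist4h. This rule, which uses no measured value, found 70 of the 54418 genes in the count table. By symbol, 6 encode linker histone H1, 20 encode H2A, 19 encode H2B, 12 encode H3 and 13 encode H4. Of the 70, 67 are annotated as protein-coding and 3 as pseudogenes. On GRCm38, 56 belong to the Hist1 group on chromosome 13, 10 to Hist2 on chromosome 3, 3 to Hist3 on chromosome 11 and 1 to Hist4 on chromosome 6.

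Thymocytes, the T cell precursors that fill the thymus, were profiled by RNA-seq in 3 genotypes, with 4 wt mice, 4 Zmat3-/- mice and 3 mice of genotype Puma-/-p21-/-Zmat3-/- (TKO). All mice were 8 to 12 weeks old and on a C57BL/6-WEHI background. Zmat3 encodes an RNA-binding protein, Puma (Bbc3) a pro-apoptotic BH3-only protein and p21 (Cdkn1a) an inhibitor of cyclin-dependent kinases, and all 3 are targets of TRP53. Zmat3-/- mice lacked Zmat3 alone, whereas TKO mice came from serial intercrosses of Zmat3-/- with Puma-/-p21-/- mice and lacked all 3 genes. No Puma-/-p21-/- group was among these libraries, so the comparison of TKO with Zmat3-/- mice is the one that bears on the loss of Puma and p21, in mice that all lacked Zmat3. The paper describes the RNA as coming from isolated thymocytes and names no sorting step for it. In such bulk RNA fewer cells of one type and less RNA per cell cannot be told apart.

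Core histones H2A, H2B, H3 and H4 form the nucleosome, and H1 binds the DNA between nucleosomes. Their cluster genes are transcribed mainly in S phase, when new DNA must be packaged, and most of their mRNAs end in a conserved stem-loop, bound by SLBP and cut with the help of the U7 snRNP, in place of a poly(A) tail. Some of these genes can also give polyadenylated mRNA, including in cells that have left the cell cycle. The TruSeq RNA kit named in the labels selects RNA with poly(A) tails, so the counts given here are not a measure of all histone mRNA in these cells.

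The stem-loop was looked for in the transcripts of every gene, since it marks where the tail-less mRNA ends. The letters searched, on the transcribed strand only, were GG, any 2 bases, CTTTT, any base, AG, any 2 bases and CC in a row. In GENCODE M21 transcripts this pattern was present in 89 of 55450 genes (0.161%), of which 44 were histone cluster genes. The other 45 included H2afx, the gene of the DNA damage-associated variant H2A.X. The following 6 examples, which show 4 forms and come from genes that return below, are read 5′ to 3′ as DNA, with the stem-loop in capitals.
Hist1h2bg: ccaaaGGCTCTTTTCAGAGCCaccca
Hist1h1c: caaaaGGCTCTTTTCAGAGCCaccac
Hist3h2a: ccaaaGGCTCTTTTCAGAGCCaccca
Hist1h3c: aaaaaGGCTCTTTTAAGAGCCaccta
Hist4h4: acaaaGGCCCTTTTCAGGGCCcacaa
Hist1h4i: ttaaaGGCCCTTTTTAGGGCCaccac
The form shown for Hist1h2bg was shared by 26 histone cluster genes of classes H1, H2A, H2B and H3. The form of Hist4h4 was found in 7 genes, all of class H4, that of Hist1h3c in 6 genes and that of Hist1h4i in 2.

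The annotated transcripts differ in how far they run past the stem-loop. In 22 genes the furthest annotated end lay within 100 bases of it, in 22 it lay further away, and in 26 no transcript held the pattern. Hist1h2bg runs on for 155 bases, Hist3h2ba for 169, Hist1h4i for 330, Hist1h1c for 840, Hist3h2a for 1643 and Hist4h4 for 2445. Hist2h2be and Hist1h2bc, both H2B genes, had no match in their annotated transcripts. The canonical polyadenylation signal AATAAA stood in the last 50 bases of a transcript of 15 of the 70 genes, against 36.5% of all genes. Per mouse, the genes that run on took 52.9% to 69.2% of the summed histone cluster CPM (the share of a gene in the counts of its library, after the TMM correction for library composition). Those without the pattern took 19.5% to 34.8%, and those ending within 100 bases 9.96% to 24.2%.

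Few of these genes were detected at a level that a test could use. The libraries held 17669715 to 80207003 counts, and 22 of the 70 genes averaged at least 1 CPM over the 11 mice, 6 of them at least 10 CPM. A further 4 genes, Hist1h2aa, Hist1h2ba, Hist1h4m and the pseudogene Hist1h2al, had 0 counts in every mouse. A count of 0 allows up to 0.167 CPM in the smallest library and 0.0403 CPM in the largest, counting error only. A gene entered a test if enough mice, namely the number in the smaller of both groups, reached 20 counts after scaling to the library of lowest depth. By that filter 25 histone cluster genes were tested in Zmat3-/- against wt, 21 in TKO against wt and 20 in TKO against Zmat3-/- mice, with 19 in all 3 comparisons and 44 in none. A gene that is low everywhere except in 1 group could enter through that group, so these are not a neutral sample of the 70.

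**Figure D1:**
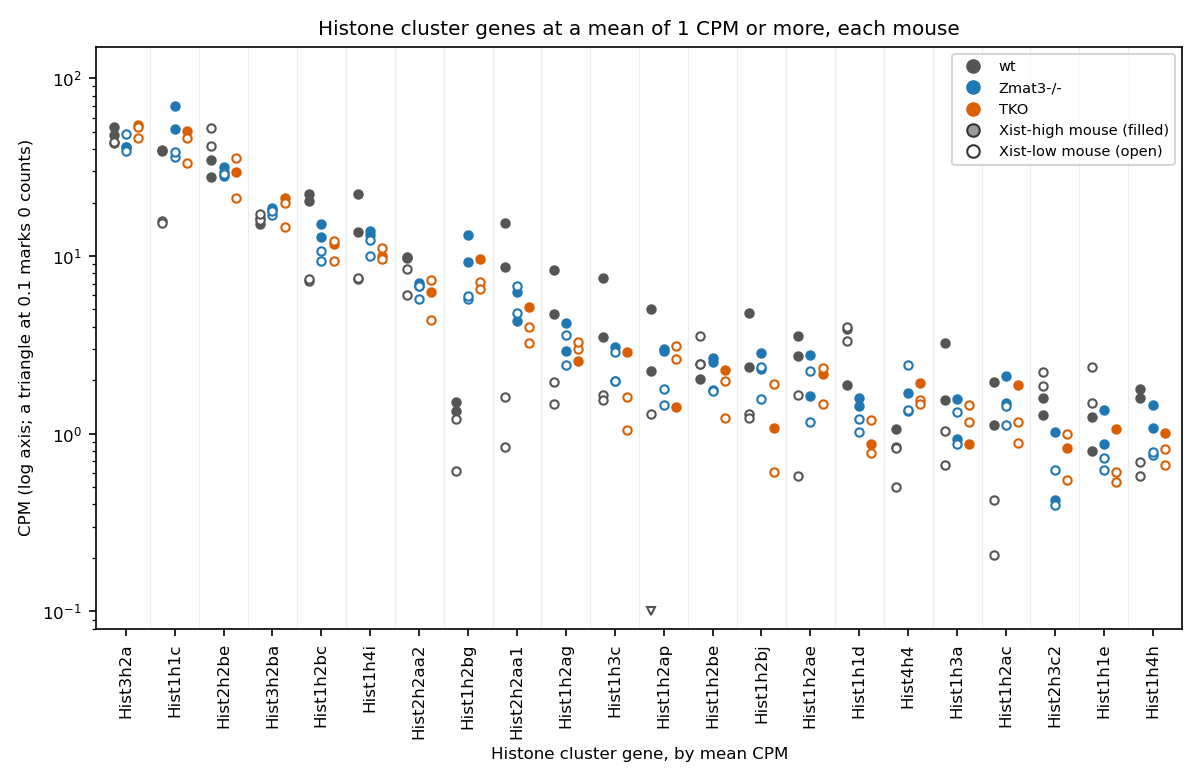
Level of the 22 histone cluster genes that averaged 1 CPM or more, in CPM on a log axis, with 1 point per mouse and genes ordered by their mean. Wt mice are grey, Zmat3-/- blue and TKO orange, filled points are mice with high Xist and a triangle marks 0 counts; Hist1h2bg is the gene whose 4 wt points all lie below every mutant point by a wide margin.

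A small set of genes supplied most of the counts. Hist3h2a, an H2A gene, had on average 21.2% of the summed histone cluster CPM of a mouse, and together with the linker histone gene Hist1h1c and the H2B gene Hist2h2be 53.9%. With Hist3h2ba, Hist1h2bc and Hist1h4i added, 6 genes held 60.3% to 76.0% of the sum in each mouse. The Hist2, Hist3 and Hist4 groups together hold 14 of the 70 genes, yet Hist3 alone gave 22.1% to 34.9% and Hist2 15.6% to 34.5% of the sum. Hist3h2a lies on chromosome 11 from 58954685 to 58956830 and overlaps Trim17 on the same strand, and 32.1% of its 31-base words also occur in Trim17 transcripts, so its counts could hold reads of Trim17.

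Levels of different genes were compared per kilobase of exon. In wt thymocytes Hist3h2ba was at 26.3 ± 1.30 CPM per kb (SD, n = 4) and Hist3h2a at 21.9 ± 2.26 CPM per kb (SD, n = 4). Hist1h1c followed at 17.6 ± 8.82, Hist1h4i at 17.5 ± 9.60, Hist2h2aa2 at 16.2 ± 3.40 and Hist2h2be at 14.9 ± 4.03 CPM per kb (SD, n = 4 for each). The last 4 differed from their neighbours in this order by less than their SDs, whereas the ranges of Hist3h2ba and Hist3h2a were narrow. Hist1h2bg was at 1.89 ± 0.631 CPM per kb (SD, n = 4) in wt, 13.8 ± 5.62 (SD, n = 4) in Zmat3-/- and 12.6 ± 2.69 (SD, n = 3) in TKO thymocytes. In the mutant mice it therefore lay among the most abundant members per kilobase, near Hist2h2aa2 at 12.5 ± 1.12 in Zmat3-/- (SD, n = 4) and 11.4 ± 2.83 in TKO thymocytes (SD, n = 3).

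Before the comparisons, 2 facts about the mice matter. Xist, the RNA of the inactive X chromosome, was at 505 to 1485 CPM in mice 1 and 2 of the wt group, mice 1 and 2 of the Zmat3-/- group and TKO mouse 1 (Xist-high), and at 0.806 to 2.54 CPM in the other 6 (Xist-low). The wt mice also parted along this line: over tested genes, log2 CPM correlated at 0.982 within each wt pair and at 0.897 to 0.926 between pairs, against 0.985 to 0.990 among Zmat3-/- and 0.972 to 0.983 among TKO mice (a description across genes, which are not independent). The labels give no sex, litter or batch, so Xist level and any other difference between the wt pairs cannot be told apart. Results are therefore also given within each Xist level.

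The targeted genes were checked first. Zmat3 was at 9.88, 12.2, 26.8 and 26.8 CPM in wt mice 1 to 4, at 5.34 to 6.85 CPM in Zmat3-/- and at 7.78 to 8.25 CPM in TKO mice. Bbc3 was at 16.8 to 20.1 CPM in wt, 15.3 to 19.8 in Zmat3-/- and 12.9 to 15.2 CPM in TKO mice. Cdkn1a was at 3.53 to 10.4 CPM in wt, 4.77 to 8.53 in Zmat3-/- and 2.49 to 3.52 CPM in TKO mice. Each targeted transcript was thus lower in the mice that lack it than in every wt mouse, though still counted. The 12 thymocyte markers summed to 14052 to 15321 CPM in wt, 12556 to 14630 in Zmat3-/- and 13366 to 17351 CPM in TKO mice, and none of them was at 0 in any mouse.

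Summed over all 70 genes, the ranges of the 3 genotypes overlapped. The sum was 287, 251, 189 and 174 CPM in wt mice 1 to 4, 262, 238, 200 and 207 CPM in Zmat3-/- mice 1 to 4, and 236, 199 and 213 CPM in TKO mice 1 to 3. The wt mice held both the highest and the lowest sum, and each mutant range lay inside theirs. Group means were 225 ± 52.9 CPM in wt (SD, n = 4), 227 ± 28.8 in Zmat3-/- (SD, n = 4) and 216 ± 18.9 CPM in TKO thymocytes (SD, n = 3). Within each genotype the Xist-high mice had higher sums than the Xist-low mice. Among Xist-low mice all mutant sums lay above both wt sums, whereas among Xist-high mice they lay below the higher wt sum, and 1 of the 3 lay above the lower one.

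By class, H1 genes summed to 22.8 to 48.9 CPM in wt, 38.9 to 74.3 in Zmat3-/- and 36.1 to 54.0 CPM in TKO mice. H2B genes were at 74.4 to 85.6, 71.0 to 88.1 and 61.6 to 80.7 CPM. H2A genes were at 55.1 to 97.6, 62.5 to 70.2 and 65.3 to 76.8 CPM. H3 genes were at 7.88 to 24.7, 7.68 to 10.2 and 6.57 to 8.76 CPM, and H4 genes at 12.9 to 32.8, 17.0 to 23.1 and 15.0 to 16.8 CPM. Each mutant genotype overlapped wt in all 5 classes. Between the mutant genotypes only H4 did not overlap, with every TKO mouse (at most 16.8 CPM) below every Zmat3-/- mouse (at least 17.0 CPM). For the Hist2 group on chromosome 3, wt mice lay above all mutant mice, while the mutant genotypes overlapped: it summed to 52.5 to 65.3 CPM in wt, 42.7 to 44.9 in Zmat3-/- and 31.1 to 47.5 CPM in TKO mice, and Hist2h2be was highest in the Xist-low and Hist2h2aa1 in the Xist-high wt mice. These sums were described without a test.

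**Figure D2:**
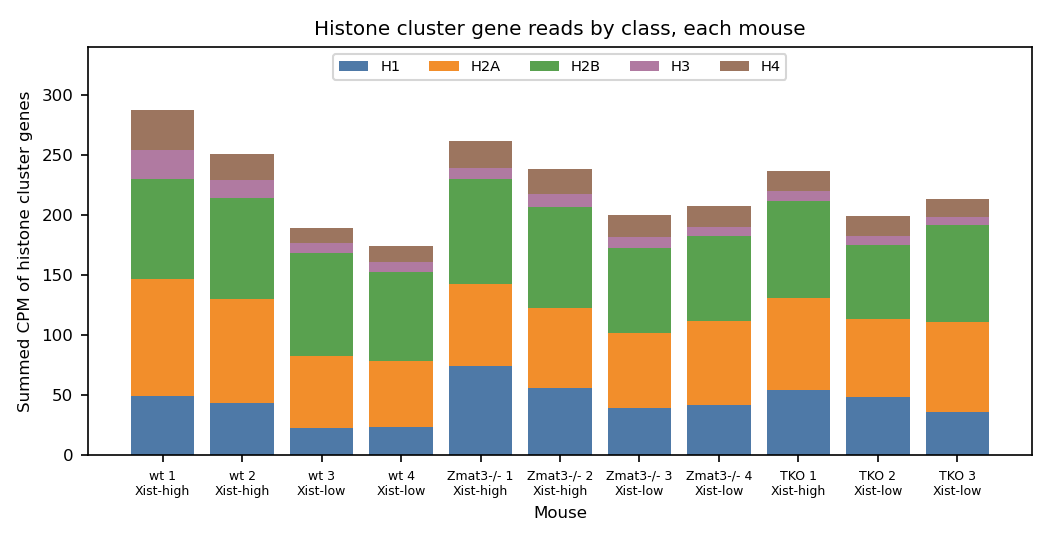
Summed CPM of the 70 histone cluster genes in each of the 11 mice, stacked by class (H1, H2A, H2B, H3, H4), with the Xist level of the mouse under its name. The sums run from 174 CPM in wt mouse 4 to 287 CPM in wt mouse 1, and the H1 layer is thinnest in wt mice 3 and 4.

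The loss of Zmat3 was addressed by comparing Zmat3-/- with wt thymocytes. Of the 25 histone cluster genes tested, 1 rose, Hist1h2bg, and 0 fell. This H2B gene (ENSMUSG00000058385.8) is a single 618-base exon on the plus strand of chromosome 13, from 23571396 to 23572013 on GRCm38. Its level was 1.34, 1.51, 1.20 and 0.615 CPM in wt mice 1 to 4 and 13.1, 9.28, 5.70 and 5.94 CPM in Zmat3-/- mice 1 to 4. The lowest Zmat3-/- mouse was above the highest wt mouse by more than the whole wt range. The underlying counts were 16 to 61 in wt and 143 to 562 in Zmat3-/- mice.

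The log2 fold change (log2FC) of Hist1h2bg was 2.86 (SE 0.369), a 7.27-fold rise, with an adjusted p of 0.0176 from edgeR's quasi-likelihood test. It passed the study's thresholds of an adjusted p under 0.05 and an absolute log2FC above 1.5. The 1 of 25 histone cluster genes called compares with 0.763% of all genes tested at the adjusted p (0.4% higher and 0.363% lower in Zmat3-/- mice) and 0.319% with the fold threshold added. A two-sided exact permutation test of its log2 CPM gave p = 0.0286, the smallest value 4 against 4 mice allow. The gene entered this comparison through the Zmat3-/- mice, since all 4 of them but 3 of 4 wt mice reached the count filter. Its groups were therefore likelier to differ. Within Xist-high mice alone the log2FC was 3.00 (SE 0.258, adjusted p = 0.00100, edgeR) and within Xist-low mice alone 2.66 (SE 0.346, adjusted p = 0.000513, edgeR), with 2 mice a group in each. In those small groups 42.1% and 28.2% of all genes passed. The call was lost when wt mouse 3 (adjusted p = 0.0588) or Zmat3-/- mouse 1, 2 or 4 (0.0541, 0.0758 and 0.0532) was left out, while the log2FC stayed at 2.57 or more for every mouse left out.

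In TKO against wt thymocytes, where Zmat3, Puma and p21 were all lost, Hist1h2bg again rose and no other histone cluster gene passed. It was at 9.66, 7.11 and 6.54 CPM in TKO mice 1 to 3, and no TKO mouse overlapped the wt mice. Its log2FC was 2.70 (SE 0.345, adjusted p = 0.0295, edgeR quasi-likelihood test), a 6.50-fold rise. The 1 of 21 genes tested compares with 0.294% of all genes at the adjusted p (0.249% higher and 0.0452% lower in TKO mice) and 0.241% with the fold threshold. The exact permutation p was 0.0571, the smallest that 3 against 4 mice allow. Within Xist-high mice the log2FC was 2.78 for the 1 TKO mouse against 2 wt mice, a value given without a test because the spread would come from those 2 wt mice alone. Within Xist-low mice, 2 of each genotype, it was 2.83 (SE 0.414, adjusted p = 0.0335, edgeR), where 3.02% of all genes passed. Leaving out wt mouse 2 or 3 or any TKO mouse ended the call, with adjusted p of 0.0698 to 0.184, and with the replicate number as a block, under which 0.121% of all genes passed, it was 0.101. The block kept the call in Zmat3-/- against wt mice (adjusted p = 0.0494, edgeR, 0.0889% of all genes). The wt mice are the same in both comparisons, so the 2 rises are not independent of each other.

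TKO and Zmat3-/- thymocytes differed in no histone cluster gene at an adjusted p under 0.05 by edgeR (0 of 20 tested, against 0.221% of all genes and 0.122% with the fold threshold), nor by DESeq2 (0, against 0.556% of all genes). At an unadjusted p under 0.05 there were 2, against 4.5% of all genes. Hist1h2bj, an H2B gene, was at 1.08, 0.611 and 1.89 CPM in TKO and 2.31, 2.83, 2.38 and 1.58 CPM in Zmat3-/- mice, with a log2FC of -0.95 (SE 0.335, adjusted p = 0.983, edgeR). Hist3h2a was at 45.9 to 54.6 CPM in TKO and 38.9 to 48.8 CPM in Zmat3-/- mice, with a log2FC of 0.22 (SE 0.0971, adjusted p = 0.983, edgeR). In both genes the groups overlapped. Hist1h1d (-0.51, SE 0.277), Hist2h2aa1 (-0.46, SE 0.251) and Hist1h3c (-0.43, SE 0.350) were also among the 5 lowest log2FC of this comparison, and the other genes named by the rule for it lay within 1 SE of 0.

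**Figure D3:**
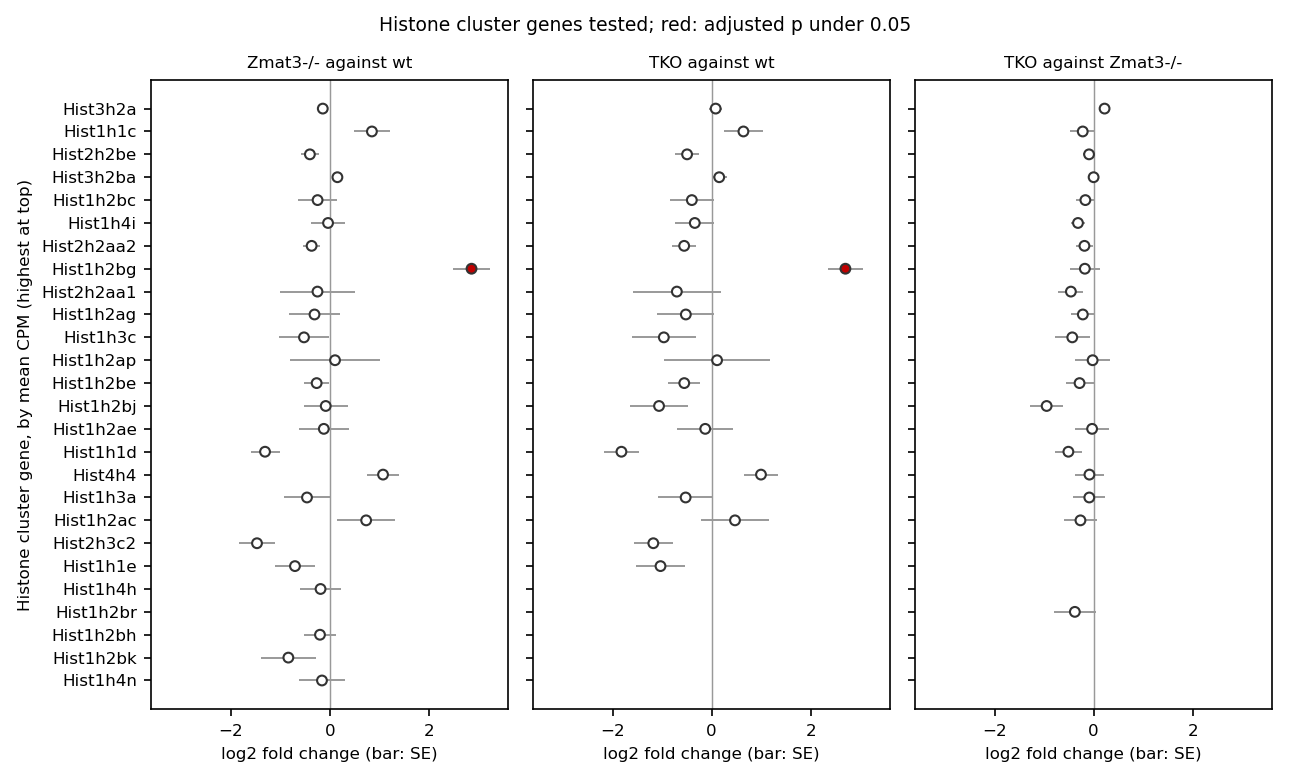
Log2 fold change of each tested histone cluster gene (point) with its SE (bar) in Zmat3-/- against wt, TKO against wt and TKO against Zmat3-/- thymocytes, from edgeR; rows with no point were not tested in that comparison. Hist1h2bg, in red, is the gene past an adjusted p of 0.05, at 2.86 and 2.70 in the comparisons with wt.

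Hist1h2bg shares sequence with other H2B genes, so its counts depend on how Salmon divided reads between them. Of its 31-base words, 56.3% also occur in transcripts of other genes, 46.8% in those of Hist1h2bc. Hist1h2bc, at chromosome 13 from 23684199 to 23692908, was at 20.3, 22.4, 7.26 and 7.38 CPM in wt, 15.2, 12.8, 9.34 and 10.7 in Zmat3-/- and 11.6, 12.1 and 9.39 CPM in TKO mice. The mutant mice thus lay between the wt pairs, and its log2FC was -0.24 (SE 0.387) in Zmat3-/- and -0.40 (SE 0.444) in TKO against wt mice, neither past the test. Its direction turned with the Xist level: in Zmat3-/- against wt it fell in Xist-high mice (log2FC -0.58, SE 0.145, adjusted p = 0.0178, edgeR), where Hist1h2bg rose, and was at 0.43 (SE 0.160, adjusted p = 0.0709, edgeR) in Xist-low mice. In TKO against wt it was at -0.85 in Xist-high mice, with 1 TKO mouse and no test, and at 0.48 (SE 0.255, adjusted p = 0.297, edgeR) in Xist-low mice. The 2 genes together summed to 21.6, 23.9, 8.46 and 8.00 CPM in wt, 28.3, 22, 15.0 and 16.6 in Zmat3-/- and 21.3, 19.2 and 15.9 CPM in TKO mice. Within each Xist level, every mutant sum exceeded the wt sums in Xist-low mice, and they overlapped in Xist-high mice. The 18 H2B genes without Hist1h2bg, Hist1h2bc included, summed to 73.8 to 84.4 CPM in wt, 65.0 to 75.0 in Zmat3-/- and 54.5 to 74.1 CPM in TKO mice. Whether reads moved between Hist1h2bg and its relatives was not tested.

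**Figure D4:**
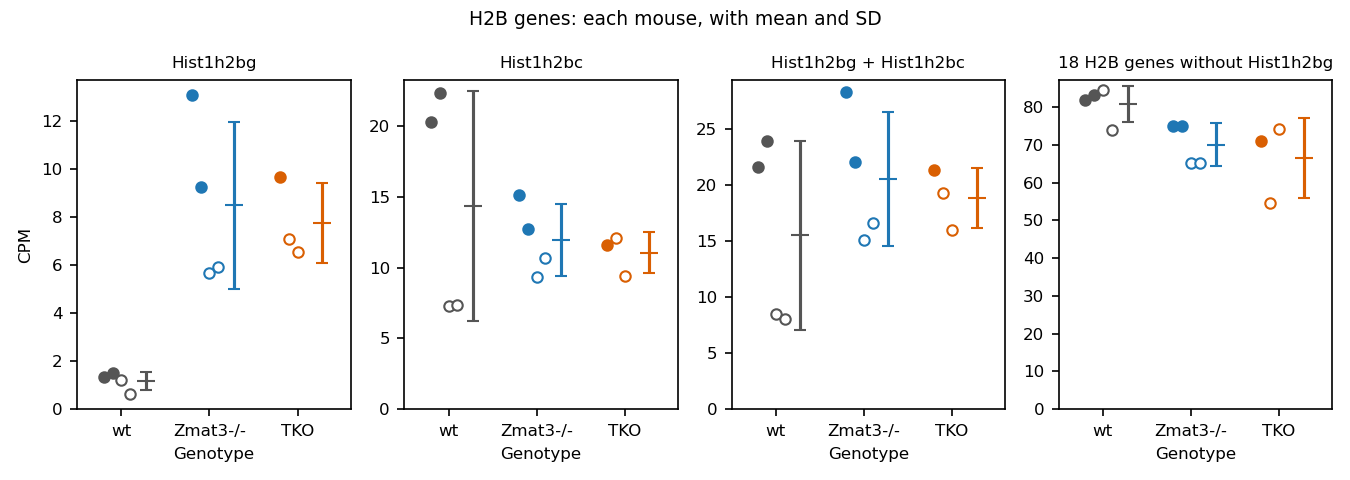
CPM of Hist1h2bg, of Hist1h2bc, of both summed and of the 18 H2B genes without Hist1h2bg (Hist1h2bc included) summed, with 1 point per mouse (filled, Xist-high; open, Xist-low) and the mean and SD of each genotype beside the points. Hist1h2bg lies at 1.51 CPM or less in wt and at 5.70 CPM or more in mutant mice, while the sum with Hist1h2bc overlaps between genotypes.

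Hist1h2bg has a close divergent neighbour, and the stretch between both genes is shown because it is the promoter of the gene that rose. Hist1h2ae, an H2A gene, lies on the opposite strand, and 175 bases separate both genes. This is chr13:23571221-23571395 of GRCm38.p6 from RefSeq on the plus strand, with CCAAT on either strand, ATTTGCAT and TATAAA in capitals.
Hist1h2bg: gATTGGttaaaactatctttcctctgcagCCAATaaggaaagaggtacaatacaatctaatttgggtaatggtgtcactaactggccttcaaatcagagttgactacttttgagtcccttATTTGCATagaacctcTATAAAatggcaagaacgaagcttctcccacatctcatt
The stretch holds CCAAT once on each strand, and ATTTGCAT (the octamer bound by OCT1) and TATAAA once each. RefSeq gave the 250 bases upstream of 62 of the 70 genes. On either strand ATTTGCAT stood in 7 of 18 H2A and 7 of 16 H2B genes, in no H1, H3 or H4 gene, and in 1.81% of all 27025 genes. CCAAT stood in 51 of the 62 genes (37.5% of all genes) and TATAAA in 29 (14.3% of all genes). Hist1h2ae was at 3.56, 2.73, 1.66 and 0.577 CPM in wt, 1.63, 2.77, 2.25 and 1.16 in Zmat3-/- and 2.16, 2.33 and 1.46 CPM in TKO mice. These groups overlapped, with a log2FC of -0.12 (SE 0.503) in Zmat3-/- and -0.13 (SE 0.566) in TKO against wt mice.

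Among the other genes, linker histone genes stood at both ends of the log2FC order. Hist1h1d, which encodes H1.3, was at 3.86, 1.89, 3.32 and 4.00 CPM in wt, 1.59, 1.43, 1.03 and 1.20 in Zmat3-/- and 0.881, 0.778 and 1.20 CPM in TKO mice. Every mutant mouse was below every wt mouse. Its log2FC was -1.31 (SE 0.293, adjusted p = 0.0907) in Zmat3-/- and -1.82 (SE 0.359, adjusted p = 0.147) in TKO against wt mice by edgeR, past the threshold in neither. DESeq2 gave adjusted p of 0.00252 and 0.000615, in fits where 8.04% and 2.87% of all genes passed. In edgeR it passed in both comparisons in 1 fit of all genotypes (adjusted p = 0.0452 and 0.0189, with 1.73% and 1.62% of all genes) and with 1 surrogate variable (0.00397 and 0.00817), and not with the replicate block (0.224 and 0.305) or Xist level as a covariate (0.0783 and 0.145). Within Xist-low mice its log2FC was -1.73 (adjusted p = 0.00534, edgeR) in Zmat3-/- and -1.97 (adjusted p = 0.0547, edgeR) in TKO against wt, and within Xist-high Zmat3-/- against wt mice -0.89 (adjusted p = 0.114, edgeR). Hist1h1c, which encodes H1.2, was at 39.6, 39.2, 15.8 and 15.3 CPM in wt, 69.8, 52.1, 36.1 and 38.6 in Zmat3-/- and 50.7, 46.2 and 33.2 CPM in TKO mice. At each Xist level the Zmat3-/- mice were above the wt mice, but over all mice the groups overlapped, with a log2FC of 0.85 (SE 0.369, adjusted p = 0.305) in Zmat3-/- and 0.64 (SE 0.399, adjusted p = 0.599) in TKO against wt mice by edgeR. Within Xist levels Hist1h1c rose in Zmat3-/- against wt mice, with a log2FC of 0.66 (SE 0.149, adjusted p = 0.0125, edgeR) in Xist-high and 1.25 (SE 0.0876, adjusted p = 1.1e-05, edgeR) in Xist-low mice, 2 mice a group, where 42.1% and 28.2% of all genes passed. In Xist-low TKO against wt mice it did not pass (1.28, SE 0.248, adjusted p = 0.0584, edgeR). Hist1h1e, which encodes H1.4, was at 0.795 to 2.38 CPM in wt, 0.623 to 1.35 in Zmat3-/- and 0.538 to 1.06 CPM in TKO mice, with log2FC of -0.70 (SE 0.403) and -1.03 (SE 0.496) and adjusted p of 0.429 and 0.516 in edgeR's test.

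Outside chromosome 13, Hist4h4 and Hist2h3c2 had groups that did not overlap with wt. Hist4h4, an H4 gene alone on chromosome 6, was at 1.06, 0.844, 0.830 and 0.50 CPM in wt, 1.70, 1.33, 1.36 and 2.45 in Zmat3-/- and 1.94, 1.56 and 1.48 CPM in TKO mice. Its log2FC was 1.08 (SE 0.315, adjusted p = 0.1501) and 1.00 (SE 0.349, adjusted p = 0.426) by edgeR. Hist2h3c2, an H3 gene, was at 1.28, 1.59, 1.87 and 2.23 CPM in wt, 1.03, 0.423, 0.397 and 0.623 in Zmat3-/- and 0.830, 1.00 and 0.551 CPM in TKO mice. Its log2FC was -1.47 (SE 0.369, adjusted p = 0.114) and -1.18 (SE 0.391, adjusted p = 0.406) by edgeR, and 64.2% of its 31-base words recur in Hist2h3c1 and in Gm20634. Neither gene passed edgeR's test in either comparison. In Zmat3-/- against wt, DESeq2 gave adjusted p of 0.0335 for Hist4h4 and 0.00931 for Hist2h3c2, both past the threshold, and in TKO against wt 0.183 and 0.125. With 1 surrogate variable both genes passed in both comparisons, as did 37.8% and 17.9% of all genes. The remaining genes at the ends of the log2FC order against wt were Hist1h2ac (0.74, SE 0.582), Hist3h2ba (0.16, SE 0.0936), Hist1h2bk (-0.83, SE 0.554) and Hist1h3c (-0.52, SE 0.496) in Zmat3-/- mice. In TKO mice they were Hist1h2ac (0.47, SE 0.695), Hist3h2ba (0.15, SE 0.156), Hist1h2bj (-1.06, SE 0.580) and Hist1h3c (-0.97, SE 0.641). Hist1h3c, the most abundant H3 gene, was at 7.54, 3.50, 1.66 and 1.54 CPM in wt, 1.98 to 3.06 in Zmat3-/- and 1.06 to 2.89 CPM in TKO mice, and none of these passed edgeR's test. Hist1h3a, another H3 gene, was at 0.664 to 3.22 CPM in wt, 0.872 to 1.56 in Zmat3-/- and 0.881 to 1.44 CPM in TKO mice. Hist1h4h, an H4 gene, was at 0.581 to 1.79, 0.762 to 1.45 and 0.667 to 1.01 CPM, and all groups overlapped for both.

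The median log2FC of the tested histone cluster genes depended on single mice and on the fit. In Zmat3-/- against wt, 6 of 25 histone cluster genes were above 0 and the median was -0.20, against 6316 and -0.03 for all 13494 genes. In TKO against wt, 7 of 21 were above 0 and the median was -0.50, against 6068 and -0.04 for all 13260. With Xist level as a covariate the medians were -0.12 and -0.08, and with the replicate block -0.09 and -0.43. In Zmat3-/- against wt the median was -0.37 without Zmat3-/- mouse 1, -0.36 without wt mouse 4 and -0.11 without wt mouse 2. Without wt mouse 1 the medians were 0.12 (17 of 27 above 0) in Zmat3-/- and 0.07 (11 of 19 above 0) in TKO against wt mice. Of all genes, 6665 of 13712 and 6241 of 13139 were then above 0. In Xist-low mice alone they were 0.49 and 0.25, in Xist-high mice alone -0.37 and -0.84, and with 1 surrogate variable 0.09 and -0.05. In TKO against Zmat3-/-, 1 of 20 was above 0 and the median of the histone cluster genes was -0.20, against 6206 and -0.01 for all 13124. It was -0.10 (5 of 19 above 0) without Zmat3-/- mouse 1, -0.31 (3 of 19) without Zmat3-/- mouse 4, -0.13 (7 of 22) without TKO mouse 3, -0.08 (5 of 20) with 1 surrogate variable and -0.12 (7 of 18) in Xist-low mice alone. At an unadjusted p under 0.05 there were 3 higher and 2 lower in Zmat3-/- and 2 higher and 3 lower in TKO against wt mice, that is 20% and 23.8% of those tested, against 16.1% and 10.3% of all genes. Of all genes, 7.18% were higher and 8.92% lower in Zmat3-/-, and 4.17% higher and 6.18% lower in TKO mice. Groups that did not overlap were found for 4 genes in each comparison with wt, 2 higher (Hist1h2bg, Hist4h4) and 2 lower (Hist1h1d, Hist2h3c2), against 14.1% of all genes tested in Zmat3-/- (7.31% higher and 6.75% lower) and 12.1% in TKO mice (6.95% higher and 5.16% lower). Of these 4, Hist4h4 entered the tests through the mutant mice, as did Hist1h2bg in Zmat3-/- against wt, and Hist2h3c2 through the wt mice in both comparisons and Hist1h1d in TKO against wt, so their groups were likelier to differ. Hist1h1d in Zmat3-/- and Hist1h2bg in TKO against wt reached the filter in enough mice of either genotype. No gene had groups that did not overlap in TKO against Zmat3-/- mice, against 4.92% of all genes.

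The genes of other histones and of histone mRNA metabolism did not differ between genotypes past the test. None of the 10 tested replication-independent histone genes passed an adjusted p under 0.05 in any of the 3 comparisons by edgeR. Against wt, 8 of the 10 were below 0 in either mutant genotype, and 4 were in TKO against Zmat3-/- mice. Their median log2FC was -0.33 in Zmat3-/- and -0.31 in TKO against wt mice, where all genes were at -0.03 and -0.04. At an unadjusted p under 0.05 there were 2, H2afj (-0.69, SE 0.274) and H2afy (-0.40, SE 0.171), in Zmat3-/- against wt mice and 0 in the other comparisons. H2afx, the other stem-loop gene named above, was at 332, 196, 149 and 144 CPM in wt, 90.9 to 172 in Zmat3-/- and 104 to 205 CPM in TKO mice, with log2FC of -0.65 (SE 0.296) and -0.62 (SE 0.339). H2afz was at 389 to 947 CPM in wt, 494 to 621 in Zmat3-/- and 525 to 563 CPM in TKO mice. H3f3a and H3f3b, which encode H3.3 outside S phase too, had log2FC between 0.03 and 0.13 in Zmat3-/- and 0.10 in TKO against wt mice.

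Of the 16 tested genes of histone mRNA expression and processing, 0 passed in any comparison by edgeR (2, 1 and 0 at an unadjusted p under 0.05 in Zmat3-/- against wt, TKO against wt and TKO against Zmat3-/- mice), and the smallest p belonged to Cpsf2 (log2FC 0.22, SE 0.0797) in Zmat3-/- and to Lsm10 (-0.69, SE 0.267), a U7 snRNP subunit, in TKO against wt mice. Slbp was at 222, 152, 121 and 109 CPM in wt, 116 to 144 in Zmat3-/- and 109 to 153 CPM in TKO mice, with log2FC of -0.23 (SE 0.212) and -0.27 (SE 0.247). In Zmat3-/- against wt the smallest p of the chaperones belonged to Hira (log2FC 0.21, SE 0.0931) and that of the S phase genes to Mcm2 (0.26, SE 0.106). None of the 12 histone chaperone genes and none of the 22 S phase genes passed in any comparison either. The unadjusted counts were 0, 1 and 0 for chaperones and 1, 0 and 1 for S phase genes in Zmat3-/- against wt, TKO against wt and TKO against Zmat3-/- mice. Of 11 small and structural RNAs that lack poly(A) tails, such as Rn7sk and Rmrp, 3 were tested, 0 passed, and Terc, Vaultrc5, Rny1 and Rny3 were at 0 in every mouse. Of 3 nuclear-retained RNAs, Mir142hg fell in Zmat3-/- against wt mice (log2FC -1.94, adjusted p = 0.0267, edgeR). That call was lost with the replicate number as a block, under which 12 genes passed, all of them higher in Zmat3-/- mice.

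The median spread of the histone cluster genes between mice was widest in wt, as was that of all genes. Over the 22 genes at 1 CPM or more, the median SD of log2 CPM between mice was 0.765 in wt (n = 4), 0.340 in Zmat3-/- (n = 4) and 0.336 in TKO mice (n = 3). Over all 13266 genes at that level it was 0.366, 0.120 and 0.215. The histone cluster genes were lower in level, with a median of 2.48 CPM against 26.1 CPM for all, and the comparison was not matched for level. The SD was highest in wt for 17 of the 22 genes, against 66.7% of all genes. It ran from 0.0708 for Hist3h2ba to 2.84 for Hist1h2ap in wt mice, and the 2 Hist3 genes varied least there.

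**Figure D5:**
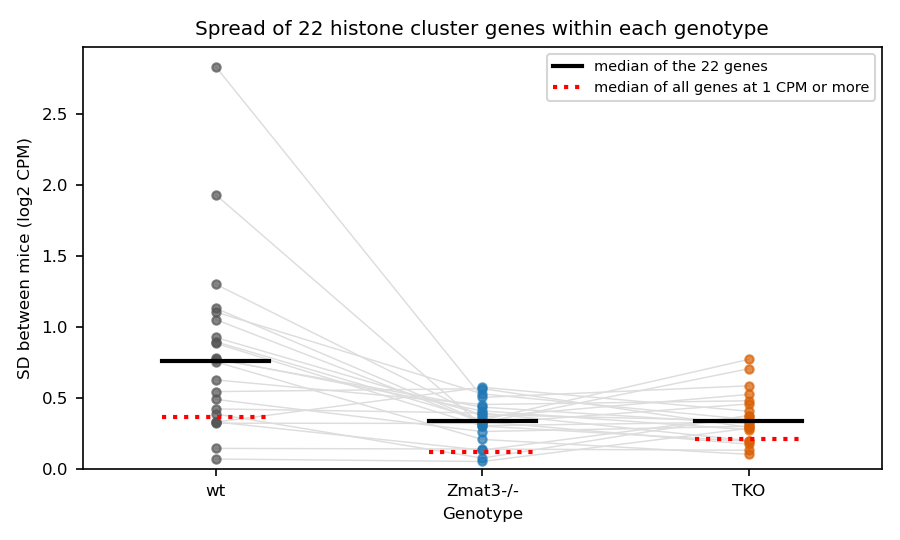
SD of log2 CPM between the mice of each genotype for the 22 histone cluster genes at 1 CPM or more (points, joined by gene), with their median (black bar) and the median of all genes at that level (red dotted bar). The black bar lies at 0.765 in wt, 0.340 in Zmat3-/- and 0.336 in TKO mice, above the red bar in each.

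The spread in wt followed the Xist level. In wt, 16 of the 22 genes were higher in both Xist-high mice than in both Xist-low mice and 3 were lower, against 43.9% and 38.2% of all genes. In Zmat3-/- mice 12 were higher and 0 lower (26.6% and 27.2% of all genes), and in TKO mice, with 1 Xist-high mouse, 11 were higher and 3 lower (17.7% and 32.3%). Hist2h2aa1, an H2A gene, was at 15.3, 8.72, 1.62 and 0.846 CPM in wt, and at 4.30 to 6.77 in Zmat3-/- and 3.24 to 5.16 CPM in TKO mice, so the mutant mice filled the gap between the wt pairs. All of its 31-base words recur in overlapping gene models, and its counts are uncertain. Hist1h4i, the main H4 gene, was at 22.2, 13.6, 7.47 and 7.50 CPM in wt, 9.96 to 13.9 in Zmat3-/- and 9.68 to 11.1 CPM in TKO mice. Hist2h2be went the other way, at 27.9, 34.5, 52.6 and 41.5 CPM in wt, 28 to 31.8 in Zmat3-/- and 21.2 to 35.5 CPM in TKO mice.

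Other gene sets parted the wt mice too, in either direction. The 22 S phase genes summed to 4026, 2963, 2481 and 2373 CPM in wt, 2451 to 3120 in Zmat3-/- and 2430 to 3565 CPM in TKO mice. The 11 replication-independent histone genes summed to 4759, 3975, 2729 and 2560 CPM in wt, 3013 to 3549 in Zmat3-/- and 3165 to 3677 CPM in TKO mice. The nuclear-retained RNAs went the opposite way. Malat1 was at 210, 242, 923 and 730 CPM in wt, 414 to 593 in Zmat3-/- and 560 to 1033 CPM in TKO mice. Neat1 was at 214, 252, 508 and 511 CPM in wt and lower in every mutant mouse, at 116 to 139 in Zmat3-/- and 88.6 to 141 CPM in TKO mice (log2FC -1.52, adjusted p = 0.0685, and -1.73, adjusted p = 0.190, edgeR). Mir142hg was at 15.0, 11.6, 25.2 and 23.9 CPM in wt, 3.74 to 5.92 in Zmat3-/- and 3.80 to 5.17 CPM in TKO mice. The part of these differences in the histone values was not tested. Markers of other cells in the thymus varied too: B cell markers summed to 53.1 to 111 CPM in wt, 55.9 to 70.8 in Zmat3-/- and 51.7 to 71.8 CPM in TKO mice, erythroid markers to 880 to 8561, 1153 to 5706 and 2677 to 3721 CPM, myeloid markers to 140 to 249, 184 to 249 and 126 to 274 CPM, and thymic stroma markers to 188 to 302, 214 to 239 and 204 to 229 CPM. No marker was at 0 in every mouse, though Slc4a1 and Klf1, of the erythroid list, were at 0 in some. All 6 B cell, 8 myeloid and 9 stroma markers and 5 of 8 erythroid markers were tested. By edgeR 0 of them passed an adjusted p under 0.05 in any comparison. At an unadjusted p under 0.05 in Zmat3-/- against wt there were 3 of 9 stroma (33.3%) and 1 of 8 myeloid markers (12.5%). The B cell and erythroid lists had 0, against 16.1% of all genes. In TKO against wt there was 1, a stroma marker (11.1% of that list, against 10.3% of all genes). In TKO against Zmat3-/- mice there were 0. The part of these markers in the histone values was not tested. Some single markers separated Zmat3-/- from wt mice without overlap, as did 14.1% of all genes tested (7.31% higher and 6.75% lower). Col3a1, a fibroblast collagen gene, was at 1.74 to 5.36 CPM in wt and 7.12 to 9.80 in Zmat3-/- mice (log2FC 1.30, SE 0.308, adjusted p = 0.103, edgeR), with 1.20 to 12.2 CPM in TKO mice. Adgre1, a macrophage gene, was at 5.81 to 10.6, 11.9 to 14.5 and 8.53 to 14.8 CPM (log2FC 0.70, SE 0.178, adjusted p = 0.115, edgeR). The lists of both genes split in direction, with a log2FC above 0 for 5 of 9 stroma and 4 of 8 myeloid markers. Ngp, another myeloid marker, had a log2FC of -0.77 (SE 0.643) in Zmat3-/- against wt mice. Cd3e, a subunit of the T cell receptor complex, was at 435 to 561, 322 to 364 and 299 to 453 CPM (log2FC -0.47, SE 0.109, adjusted p = 0.0966, edgeR). Of the 12 thymocyte markers 10 had a log2FC below 0 in Zmat3-/- against wt mice, 3 of them at an unadjusted p under 0.05 and 0 at an adjusted p under 0.05. Beside Cd3e, every Zmat3-/- mouse was below every wt mouse for Rag2 (139 to 183 against 187 to 235 CPM), Thy1 (1289 to 1380 against 1394 to 2189 CPM) and Cd8a (1492 to 1708 against 1855 to 2027 CPM). Rag1, a recombinase gene and a large part of the summed thymocyte level, was at 1603, 2243, 5270 and 4939 CPM in wt mice 1 to 4 and at 3804 to 4922 CPM in Zmat3-/- mice, so that the groups overlapped. Ccl25, a thymic epithelial chemokine gene, overlapped at 30.8 to 44.1, 24.4 to 31.7 and 16.4 to 30.9 CPM (log2FC -0.59, SE 0.146, adjusted p = 0.110, edgeR). The smallest p of the B cell and erythroid lists in Zmat3-/- against wt belonged to Cd79a (log2FC -0.67, SE 0.337) and Hba-a2 (-0.38, SE 0.803). For Hist1h2bg the genotype difference was of like size at both Xist levels, as given above, with a difference of 0.32 (SE 0.438, adjusted p = 0.577, edgeR interaction term). That term passed for 44.2% of all genes tested and for 8 of 25 histone cluster genes.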

How the data were processed

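The data were bulk RNA-seq libraries of thymocytes, 4 of wt, 4 of Zmat3-/- and 3 of TKO mice. The authors quantified reads with Salmon in nf-core/rnaseq against GRCm38.p6 and GENCODE vM25 and deposited the estimated counts per gene, unnormalized. All 598598 values were whole, so rounding changed none. Salmon divides reads between similar transcripts, which matters for histone genes. The kit does not mark strand. Of 54418 genes, 54166 were matched to GENCODE M21 by identifier and 252 were not. Genotypes were compared pairwise with edgeR 4.0.16 (TMM, quasi-likelihood test, Benjamini-Hochberg over all genes tested, two-sided), without 1628 genes (Xist, those on chromosome Y, immunoglobulin genes without a coding annotation, and rRNA). The study also left out genes with obsolete Entrez identifiers, a step not applied here. The study adjusted for sex and surrogate variables. No sex is given in the labels, so Xist level and 1 surrogate variable (sva 3.50.0) were alternatives, as were DESeq2 1.42.0, RLE, no filter, 1 fit of all genotypes, the replicate block and each mouse left out. Log2 CPM used a prior count of 2. SE is the absolute log2FC over the root of F. The code was tested on simulated data.

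Genes were named by rule: those past the adjusted p, the 5 highest and 5 lowest log2FC in each comparison, the 3 most abundant of each class, detected Hist2 to Hist4 genes, targeted genes, and from other lists those past the test or otherwise the 3 of smallest p, with 5 always given. Of those 3 per list and comparison, only some are printed, chiefly the smallest in Zmat3-/- against wt mice. Hist1h2ae was added as the neighbour of Hist1h2bg. The members, lists and tests were chosen with earlier results of these data known. The labels do not say that mice were littermates, and p-values measure the spread between these mice. Equal replicate numbers in the labels carried deviations that correlated at 0.337, 0.128, 0.257 and 0.301 in Zmat3-/- against wt mice, all over 0.1. Unequal numbers of the same Xist level correlated alike (0.158 to 0.377), so the numbers are no separate evidence of pairing.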

Additional observations from a re-analysis of the deposited data

Results flagged for a closer look

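The effect of Zmat3 loss differed between Xist-high and Xist-low mice, by edgeR's interaction term over 8 mice (2 per cell), in 8 of 25 histone cluster genes (32.0%), against 44.2% of all genes tested. This contrast was added after the data were seen. The log2FC in Xist-high minus that in Xist-low mice was -3.37 for Hist2h2aa1 (adjusted p = 0.00102), -1.02 for Hist1h2bc (0.00310), -1.67 for Hist1h2ag (0.0219), -0.59 for Hist1h1c (0.0282), -0.94 for Hist1h4i (0.0333) and -1.69 for Hist1h3c (0.0378). It was 0.66 for Hist2h2be (0.0200) and 1.70 for Hist1h1e (0.0425). The log2FC had opposite signs in Xist-high and Xist-low mice for 6 of the 8 genes: Hist2h2aa1 (-1.15 and 2.22), Hist1h2bc (-0.58 and 0.43), Hist1h2ag (-0.85 and 0.82), Hist1h4i (-0.38 and 0.56), Hist1h3c (-1.11 and 0.58) and Hist1h1e (0.18 and -1.53). Xist level and any other difference between the wt pairs cannot be told apart here.

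Hist1h2br, an H2B gene, stood apart in wt mouse 1 at 0 CPM, with 0.692 to 0.720 CPM in the other wt mice. Of 44 groups of 4 examined this way, 1 did so, and chance gives about 1 in 20. Summed with its near-copy Hist1h2bq, wt mouse 1 was at 2.40 CPM and the other wt mice at 0.720 to 1.08 CPM.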

How the results depend on the processing

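Hist1h2bg kept its direction in all 18 alternatives for Zmat3-/- against wt (log2FC 2.57 to 3.01, adjusted p 1.24e-11 to 0.0758) and all 17 for TKO against wt (2.48 to 2.87, adjusted p 2.75e-11 to 0.184), 1 of which, at 2.78, rests on 1 TKO mouse. The number of histone cluster genes called was 1 in both comparisons with wt. At the adjusted p alone DESeq2 called 4 in Zmat3-/- against wt (8.04% of all genes) and 2 in TKO against wt (2.87%), 1 surrogate variable 8 (37.8%) and 6 (17.9%), and 1 fit of all genotypes 2 (1.73%) and 2 (1.62%). With the fold threshold added, DESeq2, 1 surrogate variable and the fit of all genotypes each called 2 in TKO against wt (0.777%, 1.33% and 0.518% of all genes). With each mouse left out the count ranged from 0 to 1 in both comparisons, with and without the fold threshold. With the replicate block it was 1 in Zmat3-/- and 0 in TKO against wt mice, where equal numbers correlated at 0.0734, 0.302 and 0.405. In TKO against Zmat3-/- mice they correlated at 0.195, 0.0102 and 0.174, and 0 were called with or without the block. Chosen after the data were seen, Xist-high mice alone gave 5 calls in Zmat3-/- against wt (42.1% of all genes), 7 in TKO against wt (20.2%) and 2 in TKO against Zmat3-/- mice (2.54%), and 2, 4 and 1 with the fold threshold (4.26%, 4.77% and 0.397%). The TKO arm of these is 1 mouse, assumed to vary like the 2 mice of the other group, so the counts with TKO mice support nothing. Xist-low mice alone gave 10 in Zmat3-/- against wt (28.2%) and 6 with the fold threshold (2.64%), 1 in TKO against wt (3.02%) and 0 in TKO against Zmat3-/- mice (0.107%). Among the genes named for their log2FC, signs turned for Hist1h1e in Xist-high mice alone (0.18 in Zmat3-/- and 0.0754 in TKO against wt) and for Hist1h3c in Zmat3-/- against wt in Xist-low mice alone (0.58) or with mice left out one at a time (-0.76 to 0.14), and in TKO against Zmat3-/- in Xist-high mice alone (0.22). Of other genes with a printed log2FC against wt, Hist1h2bc (0.43 and 0.48) and Hist1h2ae (0.62 and 0.69) turned in Xist-low Zmat3-/- and TKO mice. The cause was not tested. Summed CPM and median SDs moved by less than their spread in every alternative run. Depth limits the genes under 1 CPM, 48 of the 70, most of which could not be tested.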
